A study of Rattus norvegicus with 6 samples.

Results

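TSA, the usual abbreviation of trichostatin A, was added to phenylephrine-treated neonatal rat ventricular myocytes (NRVM), and the RNA of these cultures was compared with that of cultures that received phenylephrine without it. NRVM are the muscle cells of the newborn rat's ventricle in primary culture. Phenylephrine (PE) is an agonist of the alpha-1 adrenergic receptor that makes such cells enlarge. The libraries were chosen by their labels: 2 of PE with a control short hairpin RNA (called PE here) and 2 of PE, TSA and the same control hairpin (PE+TSA), so 4 of the 6 libraries of the series. The other 2 libraries carried a JIP1 hairpin beside PE and TSA (PE+TSA+shJIP1; a label field also speaks of a JIP1 knockout), and their levels are given beside the others without a test. Every group carried a hairpin and PE, and the treatment lasted 3 days. Cells without PE or without a hairpin were not analysed here. The labels give TSA only as an abbreviation, do not give its dose, and leave unsaid whether a group's libraries are separate cultures. The spread behind each p-value may therefore be technical.

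TSA blocks the zinc-dependent histone deacetylases, the enzymes that take acetyl groups off histone tails and are held at genes by repressor complexes. One such repressor, REST, keeps neuronal genes silent outside the nervous system and recruits histone deacetylases to a DNA element called RE1. In heart muscle, deacetylase inhibitors are known for blunting hypertrophic growth, and serum response factor (SRF) drives many genes of the contractile apparatus through CArG boxes.

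The values are FPKM, a read density per transcript length and library size, for 13843 features. PE replicate 2 was 20.8 times shallower than PE replicate 1 by the steps between its low values, while the other 4 libraries lay between 0.722 and 1.34 of the depth of PE replicate 1. PE replicate 2 listed 3667 features at 0 against 1407 to 1837 in the other 5 libraries, and the lowest 5% of its values above 0 ended at 0.973 FPKM, against 0.127 to 0.324 elsewhere. A low or zero level in PE therefore rests mainly on PE replicate 1. Mapk8ip1, which encodes JIP1, was listed with 3.77 and 4.39 FPKM in PE, 14.6 and 17.9 under TSA, and 1.80 and 3.65 with its hairpin (adjusted p = 0.0852 for TSA against PE).

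The genes that rose with TSA began at lower levels in PE than those that fell. Of 10359 features that averaged 1 FPKM or more, 84 passed limma's test (adjusted p below 0.05, 0.811% of those tested). Of these, 65 were higher with TSA (0.627%) and 19 lower (0.183%). In all 84 the lowest library of the higher group exceeded the highest of the lower group by at least 1 on the log2(FPKM + 1) scale, a gap that 355 tested features showed upward and 130 downward. Without asking for a gap, both PE+TSA libraries lay above both PE libraries in 29.5% of the features tested and below in 21.1%. The 65 rises had a median PE level of 2.73 FPKM and the 19 falls one of 78.1, against 11.5 over all features tested. Part of this contrast was set by the method. The smallest called change was 1.40 on the log2 scale, so a gene near 0 in PE could not be called lower. The filter also let such a gene be tested only if another group was higher. Of the 65, 35 had at least 1 FPKM in both PE libraries, 27 were below 1 in both, 20 were listed at 0 in PE replicate 2 and 7 at 0 in both, while 14 had at least 10 in both. Of the 19 falls, 16 had at least 50 FPKM in both PE libraries and 15 still had at least 10 in both PE+TSA libraries, so most of these were reduced and not lost. The median change of all features was 0.10 on the log2 scale, and all changes below stand relative to a centre that other scalings move to -0.01 or -0.02. Adding 1 before the log2 shrinks the changes of low genes.

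**Figure D1:**
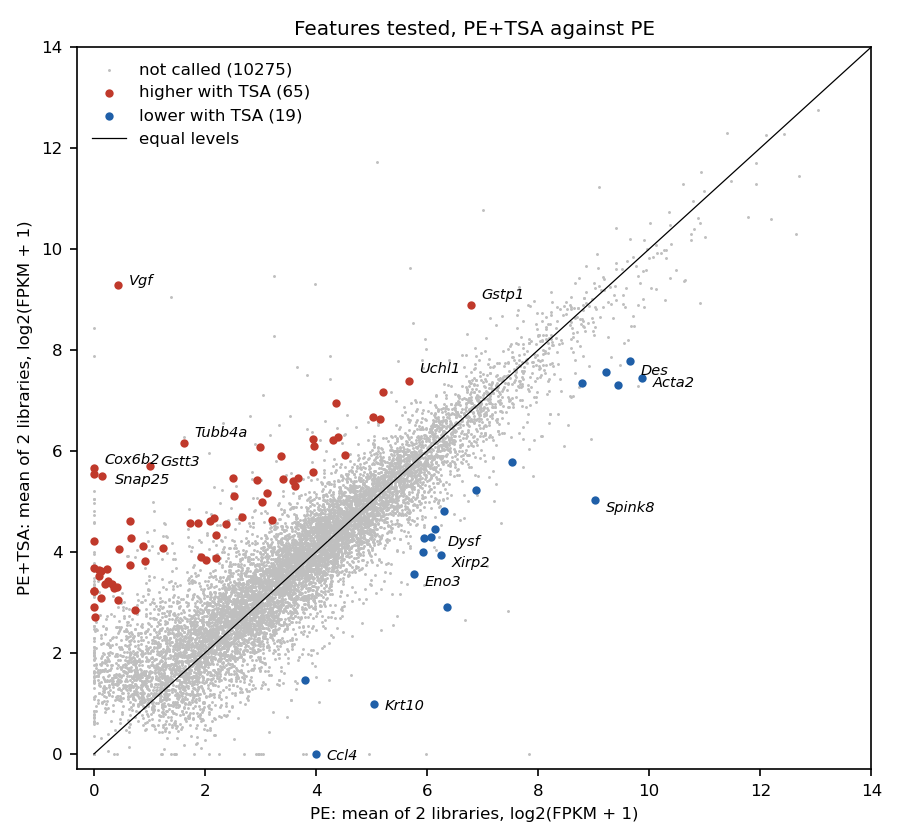
Mean log2(FPKM + 1) of the 2 PE+TSA libraries (vertical axis) against that of the 2 PE libraries (horizontal axis) for the 10359 features tested, 1 point per feature, with the 65 rises in red, the 19 falls in blue and a line of equal levels. Most red points start at low PE levels, with Vgf far above the rest, and the blue points lie at PE levels of about 50 FPKM or more apart from Rilp, Ccl4 and Krt10.

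The number of calls depended on which libraries set the spread. It was 14 without the shallow PE replicate 2, 203 without PE replicate 1, 19 or 16 without the first or second PE+TSA library, 6 without either PE+TSA+shJIP1 library and 5 with only the 4 compared libraries in the fit. All 84 kept their direction in each of these fits. Leaving out libraries could not have reversed them, because their PE and PE+TSA libraries do not overlap.

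The promoters shown here belong to 3 genes that rose and 1 that fell, chosen because their windows hold a match to a site of a factor known to control neuronal or muscle genes. They are the 250 bases before the transcription start in RefSeq on the assembly GRCr8, which is not the build of the expression values. Vgf lies at chr12:25277021-25277270 on the minus strand, Syn1 at chrX:3725495-3725744, Sez6l2 at chr1:190987397-190987646 and Fhl1 at chrX:139638246-139638495, the last 3 on the plus strand. Capitals mark TGACGTCA (the cyclic AMP response element) and GGACAGC (core of the right arm of RE1) in Vgf, TGACGTCA and CAGCACC (core of the left arm of RE1) in Syn1, TTCAGCACC (left arm of RE1) and GGACAGC in Sez6l2, and the CArG box in Fhl1, each searched on both strands, so that a match on the other strand appears as its reverse complement.
Vgf: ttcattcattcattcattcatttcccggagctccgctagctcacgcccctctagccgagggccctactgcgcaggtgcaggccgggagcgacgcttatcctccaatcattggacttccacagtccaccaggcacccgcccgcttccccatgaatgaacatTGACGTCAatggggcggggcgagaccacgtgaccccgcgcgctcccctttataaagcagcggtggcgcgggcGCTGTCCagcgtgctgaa
Syn1: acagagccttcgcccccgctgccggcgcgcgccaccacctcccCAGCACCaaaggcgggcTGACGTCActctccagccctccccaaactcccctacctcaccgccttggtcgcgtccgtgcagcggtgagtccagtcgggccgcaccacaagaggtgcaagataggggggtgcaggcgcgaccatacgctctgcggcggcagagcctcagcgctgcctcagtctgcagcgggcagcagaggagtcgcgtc
Sez6l2: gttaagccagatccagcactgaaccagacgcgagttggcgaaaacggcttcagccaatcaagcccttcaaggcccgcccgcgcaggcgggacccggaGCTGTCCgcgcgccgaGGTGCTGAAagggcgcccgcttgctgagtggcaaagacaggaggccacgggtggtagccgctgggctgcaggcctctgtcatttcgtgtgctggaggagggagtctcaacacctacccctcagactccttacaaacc
Fhl1: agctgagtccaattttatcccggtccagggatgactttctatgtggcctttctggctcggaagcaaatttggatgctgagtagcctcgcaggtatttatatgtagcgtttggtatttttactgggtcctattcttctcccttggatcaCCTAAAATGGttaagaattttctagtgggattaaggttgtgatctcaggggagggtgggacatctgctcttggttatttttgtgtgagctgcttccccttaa

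Promoter windows of 300 bases (250 before to 50 after the start) were found for 51 genes that rose and 16 that fell. The core of the RE1 left arm, which TTCAGCACC contains, stood in 8 of the 51 (15.7%), against 7.90% of the promoters of features tested and 6.91% of all promoters. The core of the right arm stood in 6 of the 51 (11.8%) and 2 of the 16, against 7.35% and 6.64%. As exact matches, both cores stood together in Sez6l2 and Fgf12. Near matches were not counted, such as cgtgctgaa beside the right arm in Vgf, which differs from the reverse complement of TTCAGCACC only in its first letter. The cyclic AMP response element stood in 5 of the 51 (9.80%), among them Vgf, Syn1 and Kif5c, against 3.42% of tested and 1.91% of all promoters, and in none of the 16. The CArG box stood in 1 of 16 promoters that fell (Fhl1) and 1 of 51 that rose (Gstp1), against 1.30% and 1.64%. GGGCGG, the core of the Sp1 site, stood in 38 of 51 (74.5%) and 9 of 16 (56.2%), against 64.7% of tested promoters, TATAAA in 5 of 51 and 4 of 16 (25%), against 6.61%, and CCAAT in 17 of 51 (33.3%) and 5 of 16 (31.2%), against 37.9%. These are matches of letters in short windows, given as a description with no test.

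**Figure D2:**
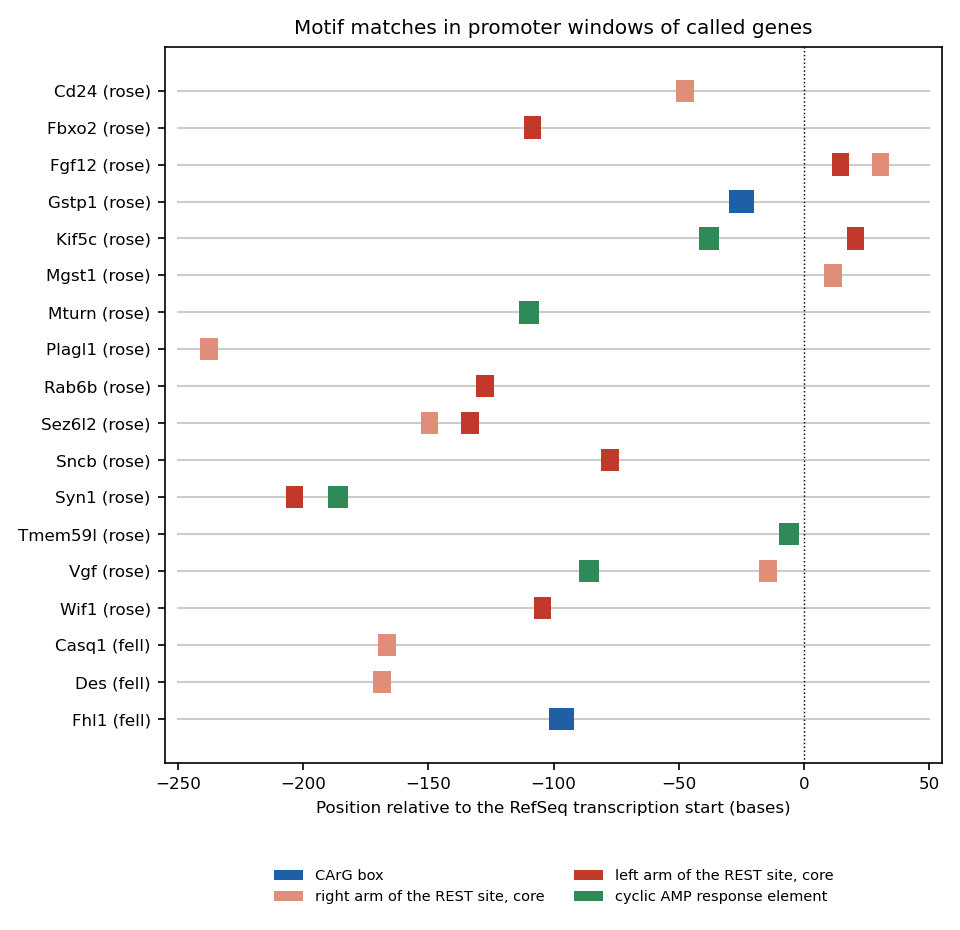
Matches to 4 motifs in the promoter windows of called genes that hold any of them (15 that rose, 3 that fell), by distance in bases from the RefSeq start (horizontal axis), 1 line per gene. Sez6l2 and Fgf12 carry both RE1 cores close together, and Vgf, Syn1, Kif5c, Mturn and Tmem59l carry the cyclic AMP response element.

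Some genes of the neuronal secretory pathway rose with TSA. The gene lists used from here on were chosen with earlier results of these data known, so their shares are only a description. Of 12 tested features of the neuropeptide and secretory granule list, 4 rose and none fell, against 0.627% and 0.183% of all features tested. The 4 were Vgf, Scg5, Ptprn and Penk (listing 2 of 2 of a symbol that the table holds on several rows). Vgf, whose product is cut into neuropeptides, had 0.0691 and 0.719 FPKM in PE but 422 and 919 with TSA (8.85 ± 0.52 SE, adjusted p = 0.00378). With the JIP1 hairpin it had 355 and 795, so all 4 TSA-treated libraries were high. Scg5, a chaperone of a prohormone convertase, had 10.5 and 13.2 FPKM in PE+TSA and 0 in each PE library (adjusted p = 0.0155). Ptprn, a membrane protein of dense-core granules, was already present in PE, at 21.6 and 18.6 FPKM, and reached 69.7 and 84.8 (1.89 ± 0.21, adjusted p = 0.0307). Penk, the enkephalin precursor, went from 36.0 and 35.4 to 127 and 161 (1.98 ± 0.23, adjusted p = 0.0307), and its other listing from 21.2 and 22.0 to 58.9 and 105 (adjusted p = 0.061). Resp18, another granule protein, was at 0 and 3.40 in PE and 28.6 and 32.9 in PE+TSA, and missed the threshold (adjusted p = 0.0703). Nucb2 and Cpe stood lower, at 81.3 and 87.7 against 47.0 and 57.7 and at 94.4 and 80.5 against 74.5 and 70.9 (adjusted p = 0.158 and 0.478). Pam overlapped, at 368 and 323 against 361 and 215. Of the 12, 3 averaged below 1 FPKM in PE and so had to be higher elsewhere to be tested, while 8 more features of the list, among them Chga and Chgb, averaged below 1 over the 6 libraries. Over all 20 features in the table both PE+TSA libraries exceeded both PE libraries in 13 (27.8% over the whole table) and lay below in 2 (16.9%), with a median change of 0.94 against 0.09 for the whole table. The 4 calls were also 4 without PE replicate 1, but 2 without PE replicate 2 or PE+TSA replicate 2, and 1 without PE+TSA replicate 1 or either hairpin library.

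Some genes of the presynaptic terminal rose as well. In the synaptic vesicle and SNARE list, 4 of 24 tested features rose and none fell, against 0.627% and 0.183% of all features tested. Of the 24, 12 averaged below 1 FPKM in PE, so that they were tested because another group was higher. Over all 33 features in the table, groups did not overlap upward in 18 and downward in 2 (median 0.90), against 27.8% and 16.9% over the whole table. Cplx2 stood lower, at 1.57 and 5.03 FPKM in PE against 0.542 and 0.283 in PE+TSA (adjusted p = 0.234). Snap25, the SNARE protein that docks vesicles at the membrane, had 0.220 and 0 FPKM in the PE libraries and 39.3 and 49.9 under TSA (5.36 ± 0.26, adjusted p = 0.00308). Slc17a7, the vesicular glutamate transporter VGLUT1, went from 0.794 and 0.974 to 14.5 and 11.8 (2.90 ± 0.33, adjusted p = 0.0307). Syn1, synapsin I, which tethers vesicles to actin, had 0.144 and 3.67e-10 in PE, rose to 8.61 and 12.8 with TSA and had 1.04 and 3.25 with the JIP1 hairpin (3.43 ± 0.47, adjusted p = 0.0413). Its hairpin libraries therefore lay between the other groups. Sncb, beta-synuclein, stood at 0.759 and 0 against 7.996 and 9.82 (adjusted p = 0.0373). Without PE replicate 2, PE+TSA replicate 2 or either hairpin library 1 of the 24 passed, 2 without PE+TSA replicate 1 and 6 without PE replicate 1.

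Axonal and neuronal cytoskeleton genes gave 6 rises and no falls among 23 tested features, against 0.627% and 0.183% of all features tested. Of the 23, 9 averaged below 1 FPKM in PE. There was 1 call on leaving out any single library except PE replicate 1, which left 5. Over all 32 features in the table, groups did not overlap upward in 22 and downward in 1 (median 0.93), against 27.8% and 16.9% over the whole table. Mapt, the microtubule-binding protein tau, rose from 5.44 and 3.97 FPKM to 37.1 and 49.8 (2.96 ± 0.27, adjusted p = 0.0227). Tubb4a, a beta-tubulin of brain, rose from 2.14 and 1.98 to 61.1 and 80.6 (4.54 ± 0.23, adjusted p = 0.00308). The neuronal kinesin heavy chains, which carry cargo along axons, lay apart in the hairpin libraries, a difference that was not tested. Kif5a went from 0.617 and 0.536 to 21.9 and 25.4 with TSA and had 2.69 and 4.70 with the JIP1 hairpin, whereas Kif5c went from 0.756 and 0.603 to 5.25 and 7.31 and had 15.2 and 17.8 (both called with TSA, adjusted p = 0.0169 and 0.0461). Uchl1, a ubiquitin hydrolase abundant in neurons, and Thy1, a surface glycoprotein of neurons and fibroblasts, were the other rises. Stmn2, a microtubule-destabilizing protein of growth cones, had 2.87 and 2.96 with TSA and 0 without (adjusted p = 0.0845).

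The lists above were themselves chosen with earlier results of these data known. Other neuronal genes that rose lay outside them and were named after their values were seen. Serpini1, the protease inhibitor neuroserpin, went from 0.868 and 0 FPKM to 13.2 and 18.6 (3.61 ± 0.40, adjusted p = 0.0307). Nrgn, neurogranin, which binds calmodulin at the postsynapse, went from 0.146 and 0 to 9.01 and 14.4 (3.54 ± 0.36, adjusted p = 0.0307). Nmnat2, an NAD-synthesis enzyme that maintains axons, went from 0.325 and 0 to 10.5 and 8.23 (adjusted p = 0.0373), with 1.89 and 0.903 under the JIP1 hairpin. Atp1b2, a beta subunit of the sodium pump known from nervous tissue, rose from 6.94 and 3.15 to 33.7 and 33.5 (2.59 ± 0.37, adjusted p = 0.0461). It stood at 6.65 and 9.73 in the hairpin libraries. Crmp1, a mediator of axon guidance, rose from 0.478 and 0.662 to 10.2 and 15.1. Fgf12, a fibroblast growth factor homologue that binds sodium channels inside the cell, rose from 3.82 and 3.31 to 13.8 and 13.5. Chrm4, the muscarinic receptor M4, Vsnl1, a calcium sensor, Rab6b, a Rab of neuronal vesicle traffic, Sez6l2, Rundc3a, Tmem59l and Fbxo2 also passed, with PE levels from 0 to 4.40 and PE+TSA levels from 4.24 to 23.8 FPKM.

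**Figure D3:**
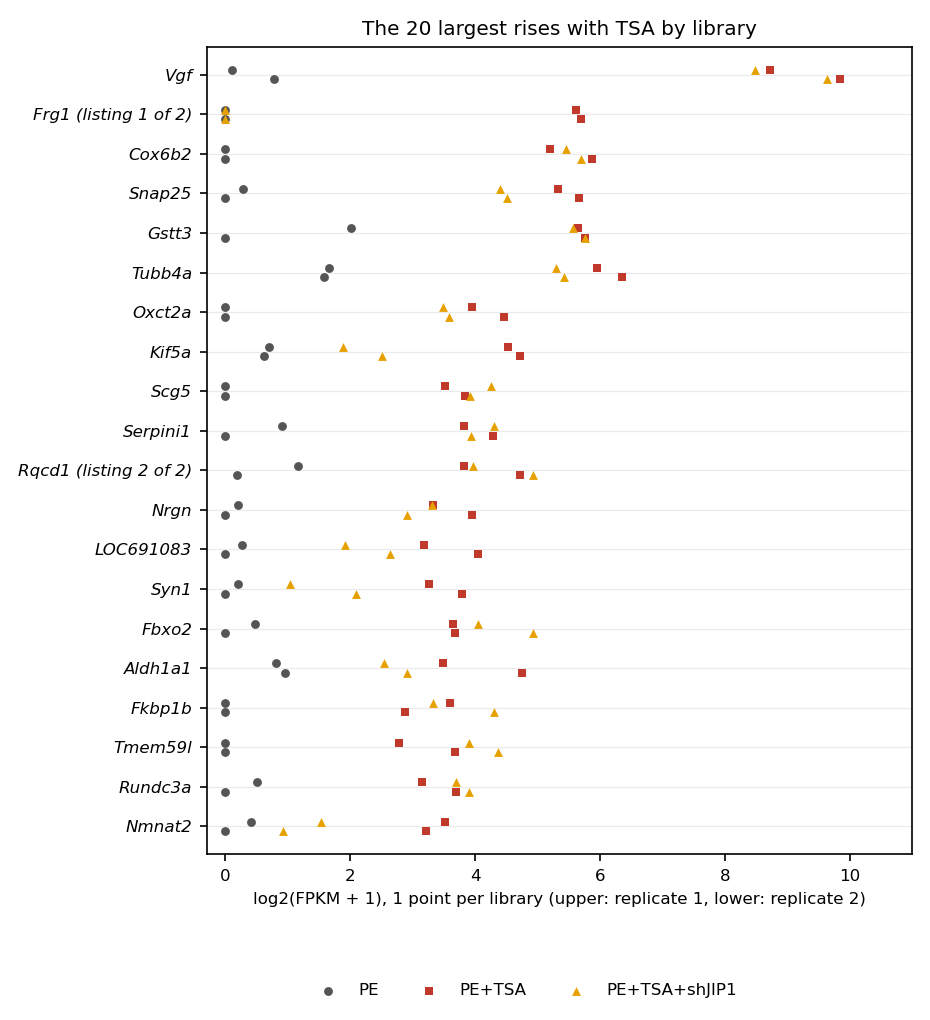
log2(FPKM + 1) in each library for the 20 largest rises, 1 row per feature and 1 point per library (grey circles PE, red squares PE+TSA, yellow triangles PE+TSA+shJIP1). No PE point reaches a PE+TSA point, and the hairpin libraries lie near PE+TSA for Vgf, Cox6b2 and Gstt3 and nearer PE for Frg1 (listing 1 of 2), Kif5a and Nmnat2.

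Some isoforms known from the germ line rose. Of 6 tested members of the testis and germ line list 2 rose, both of them at 0 in PE, against 0.627% of all features tested. Another 14 members were too low in all groups to be tested. Over all 20 members the median change was 0.08, against 0.09 for the whole table. Groups did not overlap upward in 7 and downward in 1, against 27.8% and 16.9% over the whole table. The calls were 1 on leaving out any single library other than PE replicate 1. Ldhc, the testis lactate dehydrogenase, had 0.26 and 0 FPKM in both groups. Cox6b2, the testis form of a cytochrome c oxidase subunit, had 35.9 and 57.3 FPKM with TSA and 0 in each PE library (adjusted p = 0.00308). Oxct2a, the testis form of the ketone-body enzyme Oxct1, went from 0 in both to 14.5 and 21.1 (adjusted p = 0.0108), while Oxct1 had 127 and 100 before and 79.4 and 72.8 after TSA (-0.57 ± 0.20, adjusted p = 0.214). Tdrkh, a Tudor protein of the piRNA pathway that is outside the list, went from 0.572 and 0 to 8.82 and 9.67 (adjusted p = 0.0324). Hspa2, a testis heat shock protein, was at 8.93 and 9.14 against 25.7 and 36.0 (adjusted p = 0.0776). Widespread paralogs of the neuronal genes were also measured. Snap23, related to Snap25, had 13.7 and 15.4 FPKM without TSA and 7.93 and 10.3 with it, Tubb4b 171 and 143 against 92.4 and 90.5, and Kif5b 306 and 253 against 231 and 149. None of these 3 passed (adjusted p = 0.262, 0.148 and 0.421). In each both PE+TSA libraries lay below both PE libraries, as in 21.1% of all features tested. Mapk8ip3, the widespread paralog paired with Mapk8ip1, lay the other way, at 12.5 and 14.6 against 19.8 and 40.5 (adjusted p = 0.251).

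Detoxification enzymes were a further group. Of 26 tested glutathione transferase and antioxidant features, 3 rose and none fell, against 0.627% and 0.183% of all features tested. Of the 26, 3 averaged below 1 FPKM in PE. Over all 29 features in the table, groups did not overlap upward in 17 and downward in 2 (median 0.70), against 27.8% and 16.9% over the whole table. Gstp1, the pi-class glutathione transferase, rose from 130 and 92.9 to 416 and 539 FPKM and stood at 844 and 1102 with the hairpin (2.10 ± 0.28, adjusted p = 0.0386). Mgst1, a microsomal one, rose from 28.4 and 35.1 to 93.0 and 111 (1.66 ± 0.22, adjusted p = 0.0386). Gstt3, a theta-class one, went from 3.03 and 0 to 49.2 and 53.4 (adjusted p = 0.0379). The metal-binding metallothionein Mt2A was at 13.6 and 9.77 against 119 and 339, and its relative Mt3 at 0 in both against 9.12 and 11.4, neither past the threshold (adjusted p = 0.0782 and 0.0703). Atox1, which hands copper to export pumps, did rise, from 17.2 and 12.1 to 79.4 and 68.8 (2.28 ± 0.27, adjusted p = 0.0324). Glutathione peroxidase Gpx1 stood the other way, at 112 and 85.2 against 38.0 and 45.02 (adjusted p = 0.0821). Without PE replicate 1, 5 of the 26 passed, without PE replicate 2 1 did, and without any other single library none did.

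The remaining rises were of mixed kinds and were likewise named after their values were seen. Fkbp1b, the immunophilin that binds the cardiac ryanodine receptor, had 11.1 and 6.32 FPKM with TSA and 0 in each PE library (adjusted p = 0.0424). The imprinted genes Nnat (listing 3 of 3), Plagl1 (both listings) and Nap1l5 rose. This Nnat listing went from 17.1 and 22.1 to 131 and 116 and had 288 and 324 in the hairpin libraries, while its other listings had adjusted p = 0.957 and 0.512. Wif1, a secreted inhibitor of Wnt ligands, rose from 1.98 and 0.897 to 14.3 and 17.9, and Gpc3, the proteoglycan glypican-3, from 6.34 and 8.15 to 27.7 and 34.3. Col11a1, a fibrillar collagen known from cartilage, rose from 3.20 and 3.76 to 22.0 and 27.3 (adjusted p = 0.0307). Aldh1a1, which makes retinoic acid, went from 0.759 and 0.929 to 10.2 and 25.9. Urod, an enzyme of haem synthesis, had the smallest called rise (24.1 and 19.8 to 57.2 and 61.8, 1.40 ± 0.20). Frg1 (listing 1 of 2) had 47.9 and 50.9 with TSA and 0 in the other 4 libraries, while listing 2 had 5.09 and 11.5 against 9.12 and 6.39 (adjusted p = 0.991). Creg1, a secreted lysosomal glycoprotein, went from 33.7 and 35.2 to 90.7 and 107 (1.49, adjusted p = 0.0372), and Suox, sulfite oxidase, from 7.60 and 8.99 to 23.9 and 24.0. Cd24, a surface glycoprotein of immature cells, went from 3.33 and 2.13 to 21.1 and 24.4, and Rac2, a small GTPase of blood cells, from 10.6 and 11.6 to 36.4 and 47.5. Ctxn1, Lrp11, Tspan7, Reep6, Adam15, Cib2, Phyhipl, Dhx40, Armcx2, Mturn, Tmem37, Zfp575, Fsd1, LOC691083 and Rqcd1 (listing 2 of 2) also rose, with changes from 1.65 to 3.60.

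The 19 falls were of several kinds, and those described first were named after their values were seen. Dysf, dysferlin, which reseals the sarcolemma, fell from 70.4 and 69.5 FPKM to 19.1 and 22.7 (-1.70 ± 0.20, adjusted p = 0.0332). Coro6, an actin-binding coronin, fell from 115 and 120 to 43.8 and 30.0 (-1.67 ± 0.23, adjusted p = 0.0446). Fasn, fatty acid synthase, fell from 57.8 and 64.0 to 17.8 and 18.8 (-1.68 ± 0.19, adjusted p = 0.0307), and Shmt2, the mitochondrial serine hydroxymethyltransferase of one-carbon metabolism, from 66.4 and 65.6 to 18.6 and 18.7 (-1.77 ± 0.23, adjusted p = 0.0386). Tnfrsf12a, the receptor Fn14 of the cytokine TWEAK, fell from 192 and 175 to 54.5 and 53.5 (-1.75 ± 0.19, adjusted p = 0.0307), and Emp3, a small membrane protein, from 75.4 and 80.9 to 26.2 and 27.9 (-1.50 ± 0.20, adjusted p = 0.0386). In each of these 6 the groups did not overlap, and the PE+TSA libraries of Coro6 lay the farthest apart. Krt10, a keratin of epidermis, fell from 27.7 and 36.7 to 0.411 and 1.79, and Spink8, a protease inhibitor, from 346 and 788 to 40.6 and 24.9, with wide spreads in both groups. Lctl (listing 2 of 2) fell from 72.2 and 91.2 to 9.68 and 4.25, and Rilp, a lysosomal effector of Rab7, from 14.4 and 11.7 to 1.55 and 1.96. The falls differed in where the hairpin libraries stood. Fhl1, a LIM-domain protein of muscle, fell from 815 and 595 to 178 and 141 and had 1315 and 1248 with the JIP1 hairpin, and Des, Xirp2 and Enah also stood above PE+TSA there, at 688 and 647, 99.8 and 114, and 297 and 336. Dysf (19.6 and 22.5), Casq1 (15.9 and 15.1), Fasn (21.2 and 19.8), Shmt2 (15.5 and 10.7), Eno3 (7.27 and 8.55) and Acta2 (187 and 133) were near or below their PE+TSA levels in the hairpin libraries. Whether these 2 sets differ was not tested.

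**Figure D4:**
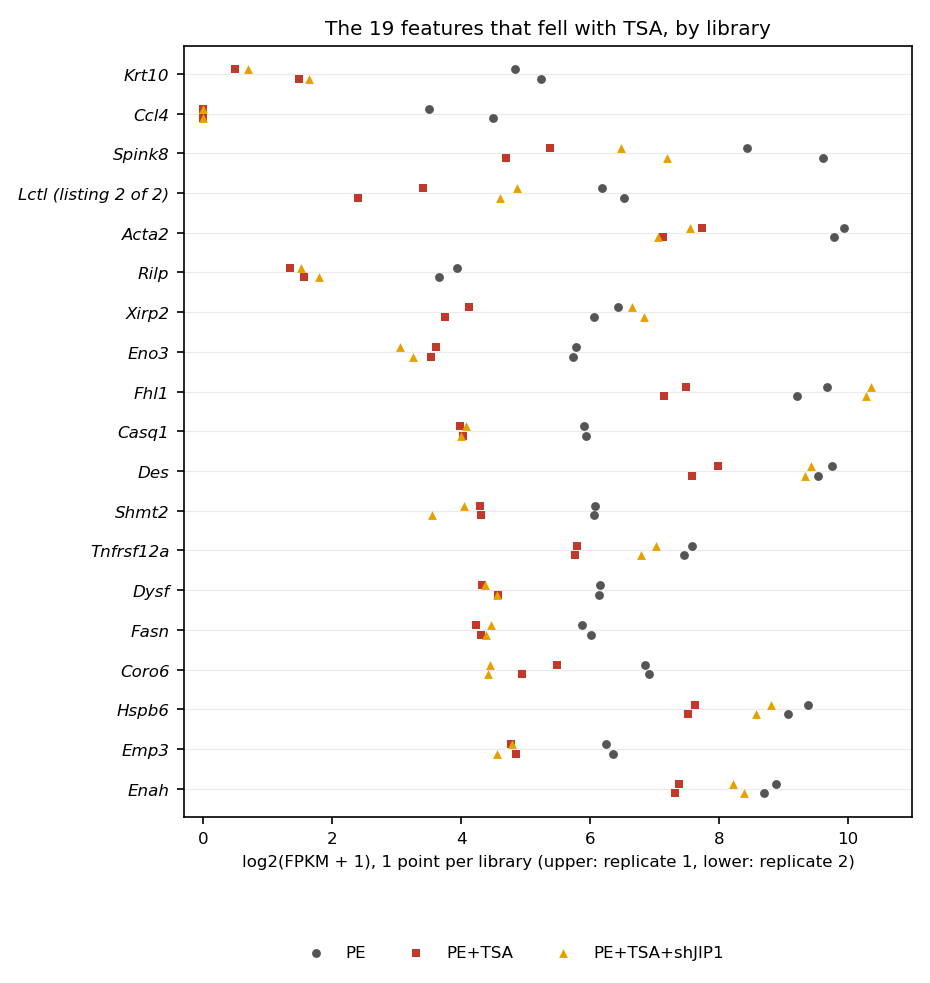
log2(FPKM + 1) in each library for the 19 features that fell, 1 row per feature and 1 point per library (grey circles PE, red squares PE+TSA, yellow triangles PE+TSA+shJIP1). The hairpin libraries lie with PE+TSA for Casq1, Dysf, Fasn and Emp3, and at or above PE for Xirp2 and Fhl1.

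Muscle structure genes as a set stood lower with TSA, although few passed singly. The SRF list was written with Srf itself and its coactivators beside the targets. Of its 25 tested features, 5 fell (Acta2, Des, Enah, Fhl1 and Xirp2) and none rose, against 0.183% and 0.627% of all features tested. Groups did not overlap downward in 18 and upward in 2, against 21.1% and 29.5% of all features tested. The median was -0.81, against 0.10 over all features, and was -1.15 without PE+TSA replicate 1 and -0.52 without replicate 2. Tagln, the smooth muscle protein SM22, was at 465 and 264 FPKM against 99.6 and 45.6, and calponin Cnn1 at 159 and 131 against 63.4 and 53.1 (adjusted p = 0.0788 and 0.0776). Egr1, an immediate early target of SRF, lay higher, at 24.3 and 14.5 against 68.2 and 37.9 (adjusted p = 0.147). Of 25 tested Z-disc and intercalated disc genes, 5 fell (4 of them also in the SRF list, and Hspb6), against the same 0.183%. In this list 18 did not overlap downward and none upward (median -0.81, -1.42 without PE+TSA replicate 1 and -0.50 without replicate 2). Leaving out PE replicate 1 left 2 calls in each list, and leaving out any other single library left none. Nrap, a scaffold of growing myofibrils, had 112 and 98.3 against 42.1 and 23.3 (adjusted p = 0.0731), and filamin Flnc at 74.8 and 71.8 against 37.1 and 26.6 (adjusted p = 0.0817).

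Of 24 tested sarcomere filament genes none passed limma's test, which 0.811% of all features did, and 12 were below an unadjusted p of 0.05. The groups did not overlap downward in 20 and upward in 1, against 21.1% and 29.5% of all features tested. The median was -1.09, -1.66 without PE+TSA replicate 1 and -0.73 without replicate 2. Cardiac actin Actc1 missed the threshold, with 7177 and 5736 FPKM without TSA and 2294 and 692 with it, as did ventricular myosin light chain Myl2, with 5278 and 4159 against 2134 and 1111 (adjusted p = 0.147 and 0.138). In both, PE+TSA replicate 2 lay well below replicate 1. Skeletal actin Acta1 was the exception, at 2043 and 1881 against 2821 and 3069 (adjusted p = 0.314). In the calcium cycling and excitation list 1 of 35 fell, Casq1, the calsequestrin of fast skeletal muscle (59.3 and 60.6 to 14.9 and 15.3 FPKM). Casq2, its cardiac form, was at 325 and 262 against 122 and 69.8, with a similar change and a wider spread (-1.65 ± 0.31, adjusted p = 0.0839). The list as a whole split evenly, with 8 of 35 features not overlapping in each direction, against 21.1% downward and 29.5% upward over all features tested. Its median was -0.03, -0.50 without PE+TSA replicate 1 and 0.15 without replicate 2. Casq1 passed only on leaving out PE replicate 1 among the fits without 1 library.

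Metabolic genes moved in part. Eno3, the muscle enolase, fell from 54.1 and 52.6 FPKM to 11.2 and 10.5 (-2.20 ± 0.21, adjusted p = 0.0295), as 1 of 20 tested glycolysis features, and none rose. Over all features tested, 0.183% were called lower and 0.627% higher. Of the 20, 11 did not overlap downward and 5 upward, against 21.1% and 29.5% of all features tested. Eno1, the widespread enolase, was at 125 and 119 FPKM against 101 and 109 (-0.22 ± 0.20, adjusted p = 0.583). Aldolase Aldoa was at 1191 and 1483 against 643 and 742, and its brain form Aldoc at 21.3 and 33.4 against 48.9 and 49.96 (adjusted p = 0.134 and 0.166). Of 24 cholesterol synthesis and uptake features none passed limma's test (6 at an unadjusted p below 0.05), and 13 did not overlap downward and 1 upward (median -0.26, -0.12 without PE+TSA replicate 1 and -0.39 without replicate 2). Among the 13 was the demethylase Cyp51, at 119 and 113 against 59.3 and 56.97 (adjusted p = 0.107). The 1 upward was Sqle (listing 2 of 2), at 22.8 and 24.2 against 43.7 and 69.1 (1.19 ± 0.26, adjusted p = 0.108). Of 22 fatty acid oxidation features only Oxct2a passed.

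The enzymes that TSA inhibits, and the repressor that recruits them, showed no called change in their own RNA, but only 0.811% of all features tested were called. Of 10 tested features of the classical histone deacetylases none passed (1 at an unadjusted p below 0.05, and 1 call without PE+TSA replicate 2), 4 did not overlap upward and 1 downward. Over all features tested 29.5% did not overlap upward and 21.1% downward. The 10 deacetylase features had a median change of 0.58, against 0.10 over all features, and 9 of them were higher. Of the 10, 2 averaged below 1 FPKM in PE, and no feature of the list in the table was left untested. Their summed level was 104 and 85.2 FPKM in PE, but 688 and 136 in PE+TSA, so PE+TSA replicate 1 stood far above replicate 2. The median change was 0.83 without PE replicate 1 and 0.31 without PE replicate 2. Hdac1 was at 12.7 and 18.4 FPKM against 19.8 and 26.6, Hdac2 at 40.2 and 18.8 against 39.6 and 44.4, Hdac3 at 11.8 and 4.88 against 13.4 and 14.8, and Hdac11 at 1.97 and 1.52 against 3.84 and 8.85 (adjusted p = 0.333, 0.414, 0.372 and 0.177). Rest was at 23.4 and 22.4 against 23.1 and 16.5, so its libraries overlapped, and its corepressor Rcor2 at 8.44 and 12.1 against 3.80 and 3.57 (adjusted p = 0.194). None of the 16 REST complex features passed (1 at an unadjusted p below 0.05). The linker histone H1f0, a classical deacetylase inhibitor target, was at 127 and 84.8 against 278 and 360 and missed the threshold (1.60 ± 0.30, adjusted p = 0.0839). Cdkn1a, the cell cycle inhibitor p21, which such inhibitors induce in many cell lines, stood lower here, at 317 and 298 against 203 and 207 (-0.59 ± 0.24, adjusted p = 0.27), while Cdkn1b, p27, stood at 28.5 and 19.2 against 40.1 and 45.6 (adjusted p = 0.163). None of 18 kinase inhibitor and G1 cyclin features passed limma's test (6 at an unadjusted p below 0.05, median -0.09, -0.36 without PE+TSA replicate 1 and 0.24 without replicate 2), nor any of 8 linker and replacement histone features (4, median 0.52).

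Cell division genes stood lower without a call. Of 24 tested mitosis genes 17 did not overlap downward and 1 upward (median -1.41), and of 29 DNA replication features 17 downward and none upward (median -0.61). Over all features tested the shares were 21.1% downward and 29.5% upward, and 0.811% were called. Without PE replicate 1 the medians were -0.92 and -0.40, without PE replicate 2 -1.84 and -0.82, and the replication median was -0.91 without PE+TSA replicate 1 and -0.40 without replicate 2. At an unadjusted p below 0.05 there were 14 and 5. Birc5, survivin, was at 13.2 and 7.79 FPKM against 0.746 and 0.584, and topoisomerase Top2a at 31.6 and 11.1 against 6.39 and 2.34 (adjusted p = 0.116 and 0.165). Both PE libraries themselves differed in these genes, with the shallow PE replicate 2 lower in both. Pcna, the replication clamp, was at 26.0 and 20.1 against 11.7 and 9.83 (adjusted p = 0.135).

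**Figure D5:**
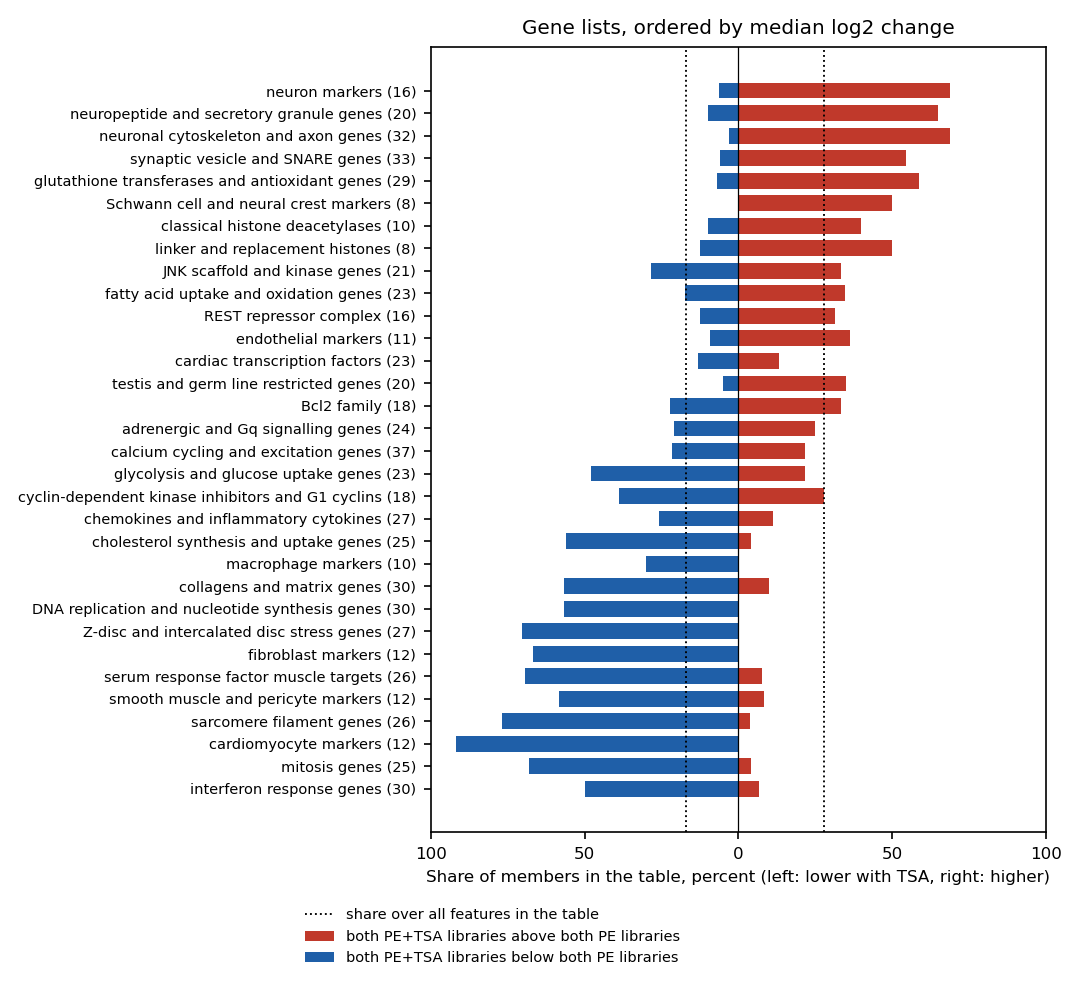
Share of all members in the table, for gene lists with at least 6, whose 2 PE+TSA libraries both lay above (red, right) or both below (blue, left) the 2 PE libraries, in percent, with lists ordered by their median log2 change and the number of members in brackets. Dotted lines give the shares over the whole table, 27.8% above and 16.9% below, and the neuronal lists stand at the top with the interferon, mitosis and cardiomyocyte lists at the bottom. The lists were chosen with earlier results of these data known.

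Signalling, transcription factor and inflammatory lists held few calls, as did the whole set of features tested, of which 0.811% were called. No feature passed among 21 adrenergic and Gq signalling genes, 22 cardiac transcription factor features, 17 Bcl2 family genes or 20 JNK scaffold and kinase features, and their medians were between 0.02 and 0.20, and between -0.09 and 0.29 on leaving out 1 library. At an unadjusted p below 0.05 there were 5, 4, 2 and 6 in that order. In the same order, groups did not overlap upward in 6, 3, 5 and 6 features and downward in 5, 3, 4 and 6. Over all features tested 29.5% did not overlap upward and 21.1% downward. Adra1a, a receptor for PE, was at 14.8 and 19.4 FPKM against 8.86 and 7.84 (adjusted p = 0.148). Hand2 and Hand1, transcription factors of heart development, were at 204 and 188 against 488 and 346 and at 6.69 and 6.05 against 15.1 and 15.7 (adjusted p = 0.115 and 0.0914). In the chemokine list Ccl4 fell, from 10.3 and 21.5 to 0 in both (adjusted p = 0.0307), as 1 of 20 features. Ccl20 was at 567 and 523 against 2100.4 and 2736, and Cxcl16 at 33.8 and 46.0 against 9.79 and 12.3 (adjusted p = 0.073 and 0.0782). None of 28 collagen and matrix features passed (11 at an unadjusted p below 0.05), with a median of -0.67, which was -0.31 without PE replicate 2, and 3 passed without PE replicate 1. None of the 30 interferon response features passed (6 at an unadjusted p below 0.05), and 1 did without PE replicate 1. Their summed level was 2090 and 2043 FPKM in PE, but 1880 and 593 in the PE+TSA libraries, and the list's median change of -1.43 became -0.08 without PE+TSA replicate 2 and -2.44 without replicate 1.

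Summed levels of several sets of cell type markers differed between the groups. Among the markers tested only Acta2 and Snap25 passed limma's test, which 0.811% of all features tested did. A sum follows mainly the most abundant markers of its set. The 12 cardiomyocyte markers were all detected, with a summed level of 29071 and 23622 FPKM without TSA against 12969 and 6819 with it, so the cultures carried heart muscle RNA in every library, at a lower level with TSA. The 12 fibroblast markers summed to 1071 and 1728 against 531 and 747, with Col1a1 at 634 and 1050.3 against 284 and 447 (adjusted p = 0.175). The smooth muscle and pericyte markers summed to 1729 and 1418 against 452 and 306, with Acta2 and Tagln as the most abundant. Macrophage markers summed to 20.6 and 24.7 against 12.8 and 13.9, and endothelial markers to 59.4 and 70.7 against 43.6 and 79.3, which overlapped. The 16 neuron marker features summed to 50.7 and 38.3 FPKM against 141 and 155, and of the 11 tested Snap25 passed. Th, of catecholamine neurons, was listed at 0 in all 6 libraries, Phox2a was at most 0.719, and Elavl3 had 1.49 and 2.12 with TSA and 0 in each PE library. Of the Schwann cell markers, Sox10 was at or near 0 in the 4 libraries, while Ncam1, which muscle also expresses, brought the summed level to 248 and 220 against 458 and 487. The 4 erythroid markers summed to at most 5.79 in these libraries. In bulk RNA, fewer cells of a type and less RNA per cell cannot be told apart, and the part of a shift in cell types in the changes above was not tested.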

How the data were processed

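FPKM values were computed by the authors and deposited as a single gene table covering the 6 libraries. The submitters' processing notes list Cufflinks and the build rn6 (role and version absent), and the header names no unit. The aligner, annotation and strandedness were not given in the sources used here. How reads shared by paralogs or overlapping genes were assigned is not known. Columns were matched to samples by title. The members and lists were chosen with earlier results of these data known.

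On log2(FPKM + 1), limma 3.58.1 (R 4.3.3) fitted group means jointly to the 6 libraries (prior variance following the level, 3 residual and 3.27 prior degrees of freedom), over features averaging 1 FPKM or more. P-values are two-sided and Benjamini-Hochberg adjusted over 10359 features, with a threshold of 0.05. The method was run on simulated data that gave all 6 libraries the same spread, so this did not cover the shallow PE replicate 2. Relative depth is the most frequent ratio of low values (bins of 0.01 on the log2 scale) to those of PE replicate 1, held by 21 to 48 features, and absolute depth is unknown, so no counting interval is given.

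The table holds 13556 symbols, 250 of them on several rows, each row its own feature. Of these symbols, 13301 matched a current or older RefSeq name of GRCr8. Named genes were the 20 largest rises and 15 largest falls among calls with at least 5 FPKM in the higher group, called list members, the 2 members of each list with the smallest p, paralog pairs, deacetylases and markers. Other names were added after their values were seen. Alternatives changed the pseudocount, filter, scaling, prior, weights, libraries and block. Counts over every list member in the table were added after seeing the data. A few results are not reported here.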

Additional observations from a re-analysis of the deposited data

How the results depend on the processing

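Across 18 alternative settings the 84 called features kept their direction wherever they were tested, which their non-overlapping groups largely fixed in advance. Snap25 and Tubb4a passed in all 18, Frg1 (listing 1 of 2) in the 17 that tested it, Vgf in 17, Cox6b2 in 16, and of the falls Casq1 and Eno3 in 11. Against 84, the number called was 3 with no filter on low values, 36 with 1 prior variance for all features, 44 with limma array weights, 5 with the 4 compared libraries alone, and from 6 to 203 on leaving out 1 library. The fit with the replicate number as a block (replicate block) called 28, of which 26 were among the 84. The deviations of same-numbered libraries correlated at 0.0735, 0.0396 and 0.122 between groups. The labels do not say whether the number marks a shared culture. These correlations cannot decide it, since noise in the shallow PE replicate 2 can lower those with PE and each group gives only 1 difference. Of the calls 77.4% were rises, but 64.3% with the block, 71.1% with median scaling, 57.1% without PE replicate 2 and 88.7% without PE replicate 1. The median change of all features was 0.10, and from 0.00292 to 0.171 on leaving out 1 library. It was -0.0135 with median scaling and -0.0208 with quantile normalization. Among the called and named genes recomputed, 1 changed sign: Rest, from -0.22 to 0.0118 without PE+TSA replicate 2, against -0.446 without replicate 1. Depth limits the low PE levels, since 1 of the 2 PE libraries is far shallower.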
